A study of Mus musculus with 2 samples.

Results

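Erythroid microRNAs (miRNAs) were read in lungs of mice given monocrotaline (MCT) and in untreated lungs. MCT is a plant toxin that damages the endothelium of lung vessels and serves to model pulmonary arterial hypertension in rodents. The set was 4 of the 1141 mouse miRNA probes on the array, chosen by name with earlier results of these data known, namely mmu-miR-451, mmu-miR-144-3p, mmu-miR-144-5p and the probe named mmu-miR-3107-5p, which the array's annotation also assigns to miR-486-5p. The MCT group was 1 sample of wild-type lung from mice 14 weeks old that were treated for 30 days, and the untreated group was 1 sample of wild-type lung for which no age is given. The strain, the dose, the number of mice in a sample and whether the lungs were flushed of blood are not given in the sources used here. Total RNA, 2 µg per sample, was hybridised to a single-colour (Cy3) array with 3 repeat spots for each probe. With 1 array per group there is no replicate check and no test, so no p-value is given. Values after ± are standard deviations (SD) over the 3 repeat spots, and for a ratio or a difference the SDs are combined as independent errors. They cover the spread within an array and not between animals.

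miRNAs are short RNAs that pair through their seed, bases 2 to 8, with messenger RNAs and lower their output. Developing red blood cells make miR-144 and miR-451 from a single primary transcript under the control of the erythroid factor GATA1, and miR-451 remains abundant in circulating red cells. miR-486 comes from an intron of Ank1, the gene of the red cell membrane skeleton protein ankyrin, and is also made in muscle. Lung is rich in blood, and these miRNAs are commonly read as a measure of the red cells left in a tissue sample. In a tissue RNA sample, fewer red cells and less miRNA per red cell cannot be told apart.

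The mature sequences of the miR-144 and miR-451 cluster are shown because its products gave opposite readings on these arrays. They are from RefSeq (GRCm38.p6), in which 3 of the 4 probes were matched, each identical over its whole length to the array's target. miR-451 is listed there as miR-451a. The seed is in capitals.
miR-451: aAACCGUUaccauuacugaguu
miR-144-3p: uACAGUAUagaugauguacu
miR-144-5p: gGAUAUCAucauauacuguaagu
The 3 seeds differ from each other, and 0 other targets on the array share any of them. The hairpins from which they are cut are printed next with the mature miRNAs in capitals.
Mir144: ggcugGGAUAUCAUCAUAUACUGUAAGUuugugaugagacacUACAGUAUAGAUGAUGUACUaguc
Mir451a: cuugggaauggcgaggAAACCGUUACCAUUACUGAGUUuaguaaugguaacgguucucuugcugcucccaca
Mir144 lies at chr11:78073005-78073070 and Mir451a at chr11:78073170-78073241, both on the plus strand, with 99 bases between the hairpins. No other annotated gene overlaps Mir144, and Mir451a shares its position with Mir451b on the opposite strand. miR-451 lies on 1 arm and runs into the loop, and it is known to be cut by the slicer Argonaute2 without Dicer, whereas miR-144 gives an arm on each side of the loop in the usual way. The genes of miR-486 and miR-3107 overlap each other on chromosome 8 inside Ank1, so the probe of this pair cannot separate their products.

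Of the 4 probes, miR-451 and miR-3107-5p were bright on both arrays, and both arms of miR-144 were at the level of empty spots on both arrays. Neither detected miRNA differed by 2-fold between MCT-treated and untreated lung. On the normalized scale miR-451 was level between the arrays, and miR-3107-5p was somewhat lower in MCT-treated lung. The size and sign of both differences turned with the scaling between the arrays.

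The miR-451 spots read 39184, 40011 and 38030.3 scanner units (median pixel intensity) on the MCT array, and 30888, 32176 and 31112.5 on the untreated array. All 3 MCT spots were above all untreated spots, by 1.24-fold at the mean. This was not particular to miR-451. The MCT spots were also all higher for miR-126-3p, by 1.09-fold, and for miR-22-3p, by 2.09-fold, while those of miR-223-3p overlapped, at 1.06-fold. The share of all probes with this reading was not computed. Even the empty spots were fully apart, with the lowest at 183 on the MCT array and the highest at 122.5 on the untreated array. By intensity the probe was number 9 of 1141 on the MCT array and number 8 on the untreated array, although brightness also depends on the probe and is no order of abundance. The brightest miRNA spots of the arrays read 53544 and 47014, so miR-451 lay below the top of either scale.

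The miR-3107-5p spots read 4180, 4161 and 4211 scanner units on the MCT array, and 2271, 2302 and 2269 on the untreated array. Again all MCT spots were the higher ones, by 1.83-fold at the mean. The empty spots of the MCT array were brighter as well, with a median of 253 against 101 on the untreated array. Raw intensities therefore do not compare the groups without a correction for background and a scaling.

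**Figure D1:**
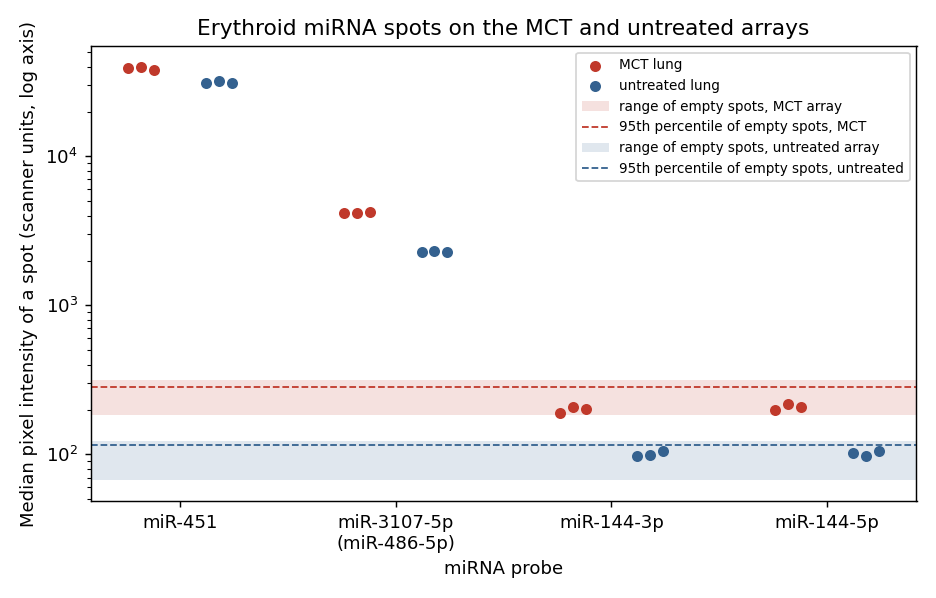
Median pixel intensity of each of the 3 repeat spots of the 4 erythroid probes on the MCT and the untreated array, on a log axis. Bands span the lowest to the highest empty spot of each array and dashed lines mark their 95th percentiles, 284 and 116. The spots of miR-451 and miR-3107-5p lie far above the bands, and those of both miR-144 arms lie within them.

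miR-144-3p, which in human red cell precursors lowers the antioxidant factor NRF2, gave spots of 189, 208 and 200.4 scanner units on the MCT array, and 98.2, 98.8 and 105 on the untreated array. miR-144-5p, from the other arm of the hairpin, gave 199, 219 and 209 on the MCT array, and 102, 98.1 and 105 on the untreated array. A miRNA counted as detected where at least 2 of its spots exceeded the 95th percentile of the 257 empty spots, which was 284 on the MCT array and 116 on the untreated array. Of the 3 spots of each arm, 0 passed this limit on either array.

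On the MCT array 99.2% of the empty spots were brighter than the brightest miR-144-3p spot, against 31.1% on the untreated array. For miR-144-5p these shares were 96.5% on the MCT array and 34.6% on the untreated array. The background was not even over either array. On the MCT array, empty spots in the first rows, where both miR-144 probes lie, were dimmer than elsewhere. On the untreated array they were brighter, with a median of 110 near the probes against 101 over the whole array. The 35 empty spots within 5 rows of the probes ranged between 183 and 252 on the MCT array, and between 79.9 and 122 on the untreated array. All 3 spots of each arm lay within these local ranges on both arrays, and below the local medians of 227 and 110. Of these spots 0 exceeded the local 95th percentiles of 236 and 121. No ratio is given for miR-144, since both groups were below the limit, and the arrays do not show that it was absent.

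**Figure D2:**
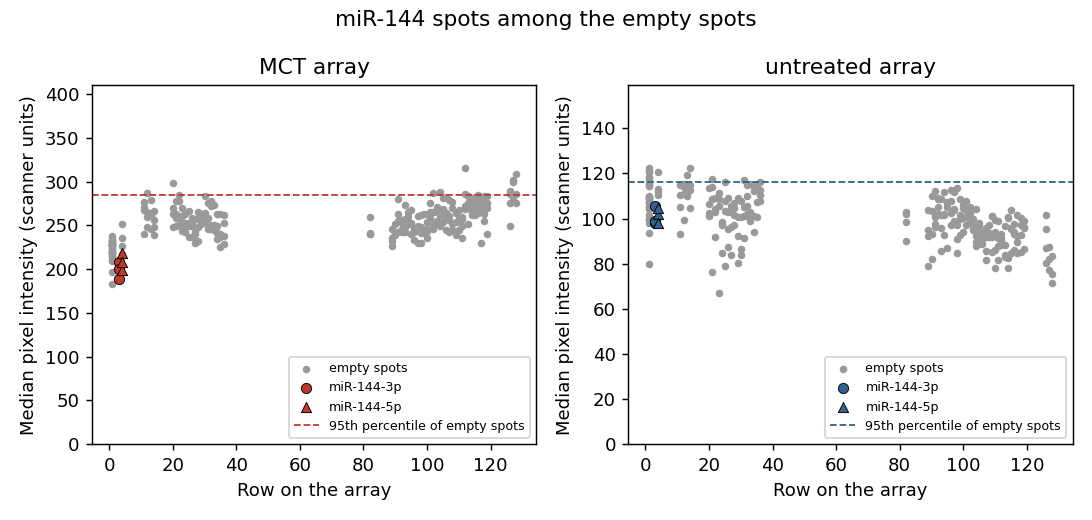
Median pixel intensity of the 257 empty spots by row of the array, with the 3 spots of miR-144-3p and miR-144-5p, for the MCT array at the left and the untreated array at the right. The miR-144 spots lie among the empty spots of the same rows, and on the MCT array those rows are dimmer than the rest.

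The probes of miR-144-3p and miR-144-5p have targets of low GC content, 30% and 30.4%. Of the 95 other probes within 5 percentage points of either value, 27 (28.4%) were detected on at least 1 array, against 409 (35.8%) of all 1141 probes. The brightest of them, let-7f-5p, had a mean intensity of 46504 on the MCT array and 39768 on the untreated array. The target of miR-451 has a GC content of 36.4% and that of miR-3107-5p 63.6%. The part of base composition in the missing miR-144 signal was not tested.

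After background correction and quantile normalization, miR-451 had log2 levels of 15.08, 15.10 and 15.05 on the MCT array, and 15.09, 15.14 and 15.12 on the untreated array. The spots of the arrays overlapped. The log2 ratio of MCT over untreated lung was -0.038 ± 0.035, with means of 15.08 ± 0.023 in MCT-treated and 15.12 ± 0.026 in untreated lung. Of the 310 miRNAs detected on both arrays, 26 (8.39%) had a ratio closer to 0. Quantile normalization gives both arrays the same ranked values, and by intensity miR-451 was number 9 and number 8. A ratio near 0 therefore follows in large part from its near ranks and is no separate result about miR-451. Of other probes about as bright, let-7d-5p had -0.022, miR-126-3p -0.12 and miR-23a-3p 0.24.

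The probe of miR-486-5p and miR-3107-5p had log2 levels of 11.44, 11.43 and 11.46 on the MCT array, and 11.77, 11.79 and 11.71 on the untreated array. Its MCT spots were all below its untreated spots, which was also so for 32.6% of the miRNAs detected on both arrays, and a further 41% had all MCT spots above. The log2 ratio was -0.31 ± 0.047, which is 1.24-fold lower in MCT-treated lung, with means of 11.44 ± 0.013 in MCT-treated and 11.76 ± 0.046 in untreated lung. Among the 310 miRNAs detected on both arrays 159 (51.3%) had a ratio closer to 0, which puts the size of this difference near the middle.

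Of the 4 erythroid miRNAs 0 were called, meaning detected on at least 1 array with a difference of at least 2-fold and no overlap of the spots. Only the 2 detected ones could have been called. Over all 409 detected miRNAs 6.36% were called, 4.16% higher and 2.2% lower in MCT-treated lung. At 1.5-fold, under quantile normalization, the count among the 2 detected erythroid miRNAs was 0, against 22% of all detected miRNAs, 11.2% higher and 10.8% lower. With 2 miRNAs a count of 0 says little beside these shares. Without normalization, centred on the median or scaled by 5S, miR-3107-5p had log2 ratios of 0.84, 0.63 and 0.62, past 1.5-fold and short of 2-fold. The median log2 ratio of all detected miRNAs was -0.044.

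The ratio of miR-451 exceeded that of miR-3107-5p by 0.28 ± 0.059 log2 under quantile normalization, where the SD covers the repeat spots only. This order depended on the scaling. With each array shifted by a constant (no normalization, or centring on the median, the 75th percentile or the 5S ribosomal RNA probes) the ratio of miR-451 was instead below that of miR-3107-5p, with a difference of -0.53. With cyclic loess the difference was 0.088, with the authors' values -0.038 and with the GC trend of the ratios removed -0.16.

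The 4 scalings by a constant also moved the whole set of miRNAs, with medians of all detected miRNAs of 0.70 without normalization, 0.49 when centred on the median, 0.11 on the 75th percentile and 0.48 by 5S. Relative to that median, miR-451 stood at -0.39 and miR-3107-5p at 0.14 under each of them. Under quantile normalization miR-451 stood at 0.0061 and miR-3107-5p at -0.27 relative to the median. No direction between the groups is therefore given for either miRNA.

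**Figure D3:**
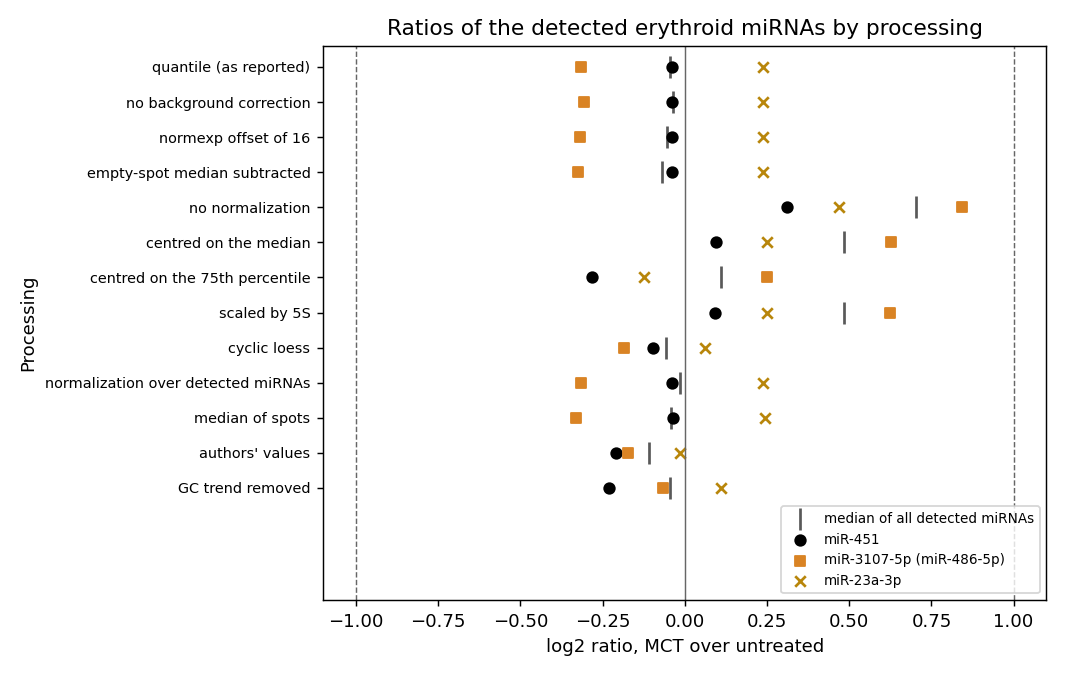
The log2 ratio of MCT over untreated lung for miR-451, miR-3107-5p and miR-23a-3p under each processing, with the median of all detected miRNAs as a bar. Dashed lines mark 2-fold. miR-451 lies left of miR-23a-3p in every row shown, miR-3107-5p changes side, and none of the points reaches 2-fold.

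The share of the background-corrected miRNA signal is a measure that a constant scaling does not touch. miR-451 made up 2.45 ± 0.034% of the signal of the MCT array and 2.92 ± 0.032% of that of the untreated array. The probe of miR-486-5p made up 0.252 ± 0.0051% in MCT-treated and 0.206 ± 0.0038% in untreated lung. The share of miR-451 was thus the lower and that of miR-486-5p the higher one on the MCT array, with no measure of the spread between arrays or animals. Neither shift was particular to these probes. miR-126-3p, also bright, had 2.63% on the MCT and 3.60% on the untreated array, and miR-145-5p 2.15% and 2.37%. miR-143-3p went the other way, with 1.16% and 0.97%, but its untreated share includes a dim spot. That spot read 6717 scanner units beside 11994 and 12747, so the direction of miR-143-3p is uncertain. Of dimmer probes, miR-25-3p had 0.51% and 0.35% and miR-22-3p 0.61% and 0.43%, while miR-223-3p had 0.068% and 0.105%. All of these are shares of fluorescence and not of molecules.

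miR-23a-3p, a miRNA that red cells carry little of, is the usual partner of miR-451 in checks of plasma for red cell lysis. Its use as a partner in lung tissue was not tested here. By intensity its probe was number 8 on the MCT array and number 11 on the untreated array. Its spots read 39533, 42527 and 41712 scanner units on the MCT array, and 28403, 30532 and 30314.5 on the untreated array, and its log2 ratio was 0.24 ± 0.14. The ratio of miR-451 was lower than that of miR-23a-3p by 0.28, a difference of -0.28 ± 0.15. Over the alternatives it lay between -0.34 and -0.16. The 4 constant scalings cancel in this difference and share the value of -0.16. The SD of 0.15 is that of the quantile-normalized spots, and no SD was computed for the constant scalings. The nearly identical miR-23b-3p may bind the same probe.

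The miRNAs with levels most like those of miR-451 over the 2 arrays, by Euclidean distance of the normalized log2 levels among 309 others, were let-7d-5p at a distance of 0.18, miR-23a-3p at 0.20 and miR-23b-3p at 0.21. Those nearest to miR-3107-5p were miR-140-3p at 0.045, miR-320-3p at 0.15 and miR-5109 at 0.24. As the distance is taken on the levels that make up the ratio, their ratios add nothing to this choice.

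Other miRNAs abundant in red cells had ratios on both sides of 0 under quantile normalization. Of 10 listed, 9 had a probe and 8 were detected, of which 3 had a positive and 5 a negative ratio. Of all 409 detected miRNAs 179 had a positive and 230 a negative ratio, a like split. At 2-fold 0 of the 8 were called, beside 6.36% of all detected miRNAs, and their median log2 ratio was -0.016, beside -0.044 for all detected miRNAs. The median was positive, 0.42 to 1.02, under the scalings by a constant, as was that of all detected miRNAs, and 4 of the 8 were then called higher without normalization, where 142 of all 409 were. When centred on the median or scaled by 5S 2 of the 8 were called higher, beside 97 of the 409, and when centred on the 75th percentile 1, beside 49. miR-16-5p, which restrains the cell cycle and is a standard red cell miRNA, had -0.11 ± 0.033. Its cluster partner miR-15a-5p had the largest ratio of the list, 0.61 ± 0.093.

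miR-92a-3p of the miR-17-92 cluster had 0.32 ± 0.036, miR-25-3p -0.025 ± 0.057, miR-185-5p -0.036 ± 0.029 and miR-22-3p -0.059 ± 0.064. The other arms of the miR-486 hairpins were dim and detected on both arrays, with 0.00080 ± 0.084 for miR-486-3p and -0.0076 ± 0.12 for miR-3107-3p. miR-486-3p had a mean intensity of 347 on the MCT array and 156 on the untreated array, close to the limits of 284 and 116. miR-363-3p was not detected on either array. Most of these miRNAs are also made by other cells of the lung, so they do not stand for red cells alone.

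White cell miRNAs, which come with the same blood but also from cells within the tissue, showed no common difference. Of 8 listed, 6 were detected, 1 was higher and 1 was lower, beside 4.16% and 2.2% of all detected miRNAs, and the median log2 ratio was 0.097. miR-223-3p of myeloid cells was 2-fold lower or more, at -1.21 ± 0.21, while miR-342-3p of lymphoid cells was 2-fold higher or more, at 1.05 ± 0.11. miR-150-5p of mature lymphocytes had 0.17 ± 0.077. miR-142-3p and miR-142-5p, which are made across blood cell lineages, were not detected on either array. Their mean intensities were 218 and 270.5 on the MCT array, and 82.1 and 89.1 on the untreated array. Unlike miR-144, miR-142-5p came close to detection on the MCT array, with spots of 242, 286 and 283 against the limit of 284. The authors' values for it were 90.75 in MCT-treated and 3.81 in untreated lung. The call of miR-223-3p was lost under the 4 constant scalings, where 0 of the list were lower. That of miR-342-3p was lost with cyclic loess, with the GC trend removed and without repeat spot 1, where 0 of the list were higher. In the authors' values, without a pseudocount, its log2 ratio was 0.85, also short of 2-fold. The median of the white cell miRNAs was -0.061 after removal of the GC trend, 0.88 without normalization, 0.66 when centred on the median or scaled by 5S and 0.29 when centred on the 75th percentile. Of the 6, 2 were called higher under the first 3 of these constant scalings and 1 under centring on the 75th percentile.

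The labelled tissue was checked with 8 miRNAs of lung cell types, from endothelium, epithelium, smooth muscle and mesenchyme, and all 8 were detected on both arrays. Their median log2 ratio was 0.070, with 0 of 8 called, beside 6.36% of all detected miRNAs, and they ranged between -0.20 and 0.46. With the GC trend removed this median was -0.072, and without normalization it was 0.92, with 3 of 8 called higher, beside 142 of all 409. The ratio of miR-451 thus lay within the range of the lung tissue list, and that of miR-3107-5p below it under quantile normalization. The endothelial miR-126-3p had -0.12 ± 0.12 and the smooth muscle miR-145-5p 0.28 ± 0.053.

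**Figure D4:**
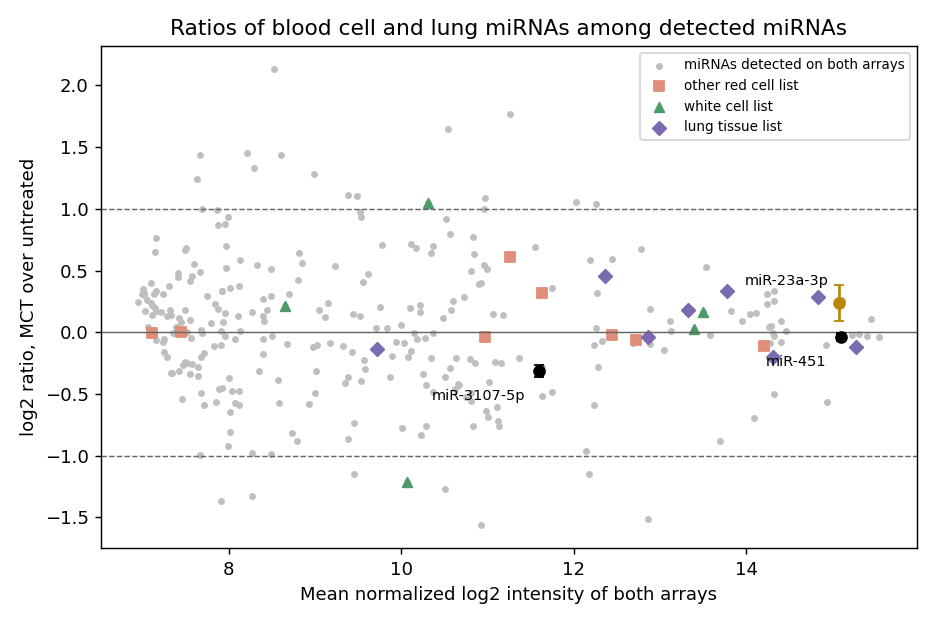
The log2 ratio of MCT over untreated lung against the mean normalized log2 intensity of both arrays for the 310 miRNAs detected on both. Points with bars are miR-451, miR-3107-5p and miR-23a-3p with the SD over repeat spots, coloured symbols are the red cell, white cell and lung tissue lists, and dashed lines mark 2-fold. miR-451 lies at the bright end near 0, and miR-3107-5p at -0.31 in the middle of the range.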

How the data were processed

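The deposited scanner output lists, for 3968 spots an array, the median of the pixels as a linear intensity with its background still included, per the file headers. A second deposited table has intensities processed by the authors, 1 per probe and array, whose background removal and scaling are not given in the sources at hand. In that table of the authors, miR-451 had 32575 in MCT-treated and 37663 in untreated lung, miR-3107-5p 2777 and 3134, miR-144-3p 0.03 and 2.28, and miR-144-5p 0.03 and 2.65. The undetected miR-363-3p had the same 0.03 in MCT-treated lung and 4.12 in untreated lung, so no ratio is read from values this low.

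Spot signals were corrected with normexp (limma 3.58.1, R 4.3.3, offset of 50), since the tables have no local background. Control spots were then left out, log2 values of miRNA spots were quantile normalized, and the 3 spots of a probe were averaged. Lists and figures were made with Python 3.11.15, pandas 2.3.3 and matplotlib 3.10.9. The miRNAs and lists were chosen with earlier results of these data known. Named were the 4 erythroid miRNAs, miR-23a-3p, list members, and the 3 nearest miRNAs in level, with let-7f-5p named after its values were seen. The same steps were run on simulated data, 1141 probes on an MCT and an untreated array. Of 10 bright miRNAs changed 2-fold 30% were called, with a median estimate of 0.94 log2. Of 12 changed 3-fold 100% were called, with a median estimate of 1.38 log2. Both simulated arrays were built from the signals of the untreated array with noise added to each spot. A difference between the arrays that depends on brightness was thus not simulated, and recovery under it was not tested. The precision is limited by the number of arrays, 1 per group.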

Additional observations from a re-analysis of the deposited data

How the results depend on the processing

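No paired analysis was possible because each group has 1 sample and no test was made. Over 18 alternatives the count of erythroid miRNAs past the threshold stayed at 0. Those that changed only the detection limit left the ratios as they were, so they could not raise this count. For both miR-144 arms the number of arrays with detection stayed at 0 under 3 other limits, chosen for this result after seeing the data. Among these, the 99th percentile of the empty spots is stricter than the 95th, so its result was fixed in advance. Since neither arm was detected, their ratios were not computed. Log2 ratios of miR-451 and miR-3107-5p moved by less than the SD of the repeat spots with no background correction, the offset of 16, subtraction of the empty-spot median, normalization over detected miRNAs and the median of the spots, and without repeat spot 1, 2 or 3 they ranged between -0.052 and -0.026 for miR-451 and between -0.35 and -0.29 for miR-3107-5p. They moved by more under 7 alternatives, for miR-451 and miR-3107-5p in turn: 0.31 and 0.84 without normalization, 0.094 and 0.63 centred on the median, -0.28 and 0.25 centred on the 75th percentile, 0.093 and 0.62 scaled by 5S, -0.095 and -0.18 with cyclic loess, -0.21 and -0.17 with the authors' values (pseudocount of 50), and -0.23 and -0.067 with the GC trend removed. The cause was not tested. The difference between the ratios of miR-451 and miR-3107-5p was added after seeing the data. Over all detected miRNAs, 142 were higher and 0 lower without normalization, 97 and 0 centred on the median or scaled by 5S, 49 and 8 centred on the 75th percentile, 46 and 38 with the empty-spot median subtracted, 23 and 19 with the offset of 16, 20 and 16 with the authors' values, 8 and 6 with the GC trend removed and 46 and 44 at 1.5-fold, against 17 and 9 as reported. Signal over background limits what can be said of miR-144, which would have had to exceed 284 on the MCT and 116 on the untreated array to be detected.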
